A study of Cricetulus griseus with 24 samples.

Results

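LR73 phagocytes, a hamster line of fibroblast-like cells that engulf dying cells, were given apoptotic human Jurkat lymphoma cells while cytochalasin D was present, and the RNA was compared with that of LR73 cells given cytochalasin D without corpses. The comparison takes 8 of the 24 libraries of the series, chosen by their labels alone: 4 with cytochalasin D (CD1 to CD4) and 4 with cytochalasin D plus apoptotic cells (ACD1 to ACD4). Both groups share the drug, so what separates them is the corpses. A second pair of groups from the same experiment is used only to set the response beside that of cells free to engulf: 4 libraries of phagocytes alone (CT) and 4 with apoptotic cells and no drug (AC). All were grown in alpha-MEM with 10% FBS and 1% PSQ, and the Jurkat corpses were made with 1500 mJ of ultraviolet C light followed by 4 h of culture. The 4 libraries of a group are biological replicates of 1 cell line, per the series' design text. The sources used here do not give the dose of cytochalasin D, the length of co-culture in this experiment or any removal of unbound corpses before lysis. Uptake itself was not measured in these files, and no sorting of phagocytes is given for this experiment, so RNA of the corpses can be counted with that of the phagocytes.

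Clearance of apoptotic cells, or efferocytosis, begins when a phagocyte senses find-me signals and binds exposed phosphatidylserine through receptors and bridging proteins, and continues with actin-driven closure of the phagocytic cup and digestion of the corpse. Cytochalasin D caps the growing end of actin filaments, so a corpse can be bound but the cup cannot close, which is why the drug is used to part contact from ingestion. The drug also changes the pool of actin monomers that holds MRTF, the cofactor of serum response factor, and the tension that controls YAP and TAZ, the cofactors of the Hippo pathway, and actin genes are themselves MRTF targets.

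Total counts per library ran from 8272232 in ACD2 to 18911353 in ACD1 over the 16 libraries of the experiment, so a floor of 3 counts corresponds to 0.156 to 0.368 CPM, the unit of counts scaled by library size used for gene levels. Values with ± are means with their SD over the 4 libraries of a group. In a principal component analysis of log levels, CT4, CD1 and ACD4 stood apart on the third component (10.4% of the variance), and counts that change by more than 1.5 times without these 3 libraries are given with that value. The drug label can be read in the actin genes: Actb, which encodes beta-actin, stood at 4237 to 4459 CPM in the CT libraries and 13202 to 14467 CPM in the CD libraries, and Actg1, which encodes gamma-actin, at 695 to 917 and 6967 to 8469 CPM. Of 11 fibroblast markers, 7 passed the filter on low counts and 6 reached 1 CPM in the CD libraries. The mesenchymal genes Vim (mean 3278 CPM) and Fn1 (967 CPM) were high, Thy1 was at 0 in every CD library, and the collagen I genes Col1a1 and Col1a2 were near 0, so the fibroblast label rests on part of its markers. Summed fibroblast markers took 4114 to 4689 ppm of the raw counts in CD and 4133 to 4600 in ACD, a sum carried by Vim and Fn1. Of the 7 measured, 2 fell and none rose (median log2 -0.14), both falls holding: Pdgfra, a growth factor receptor, averaged 31.4 CPM in CD and 22.9 in ACD, and S100a4, a calcium-binding protein, 102 and 85.8. Without CD2 the number called lower was 3. Of all expressed genes 3.86% were called lower. Myeloid markers summed to 2.11 to 3.77 ppm in CD and 2.29 to 3.70 in ACD, with Itgam, Lyz, Cx3cr1, Mrc1, Aif1 and Laptm5 at 0 in all CD libraries. Epithelial markers summed to 2.72 to 3.21 and 2.71 to 5.32 ppm, with Krt18, Krt19, Cldn3, Cldn4 and Cldn7 at 0 in all 8 libraries. T lymphocyte markers, taken to follow Jurkat RNA, are described with the genes near 0 at the end, and 4 of them reached 1 CPM in CD without corpses. In bulk RNA a lower level of a gene can come from fewer cells of a type or from less RNA per cell, and the files cannot tell these apart.

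Corpses under cytochalasin D were followed by a response of many small shifts and a few large ones. Of 12883 genes with a mean of at least 0.5 CPM in the CD libraries, 1056 (8.20%) passed edgeR's quasi-likelihood test at a Benjamini-Hochberg adjusted p under 0.05, 559 (4.34%) of them higher with corpses and 497 (3.86%) lower. The median size of a called change was 0.28 on the log2 scale, against 0.11 over all these genes, and the median change over all of them was -0.0092. Called changes of at least 1.5-fold numbered 81 upward (0.629%) and 49 downward (0.380%). The 4 ACD values lay wholly above the 4 CD values for 809 genes (6.28%) and wholly below them for 875 (6.79%), with 1684 non-overlapping genes in all (13.1%). Genes named below for the largest changes were picked only where the groups did not overlap, so for them that trait is a description and no added support. Over all 13106 genes tested, including those near 0 in the CD libraries, 1129 were called (8.61%), 632 higher (4.82%) and 497 lower (3.79%). With each of the 16 libraries left out in turn, 274 of the rises and 223 of the falls were called every time, and such calls are said below to hold. The count of rises ran from 369 without ACD4 to 840 without CD4, and was 316 without the 3 libraries that stood apart; the count of falls ran from 307 without ACD3 to 725 without CD4, was 325 without CD2 and 318 without ACD4, and was 277 without the 3 libraries. Of the 55 rises of at least 2-fold (0.427%), 44 were genes with an identifier and no symbol, at a median of 1.24 CPM in CD, and 31 of those 44 were also higher with corpses in the absence of the drug. The 11 with a symbol included Thbs1, Ankrd1, Inhba, Ctgf, Cyr61, Nppb, Arhgef17 and Mmp10. Falls of at least 2-fold numbered 12 (0.0931%), 8 of them with a symbol, including Trib3, Oasl and Rapgef4.

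**Figure D1:**
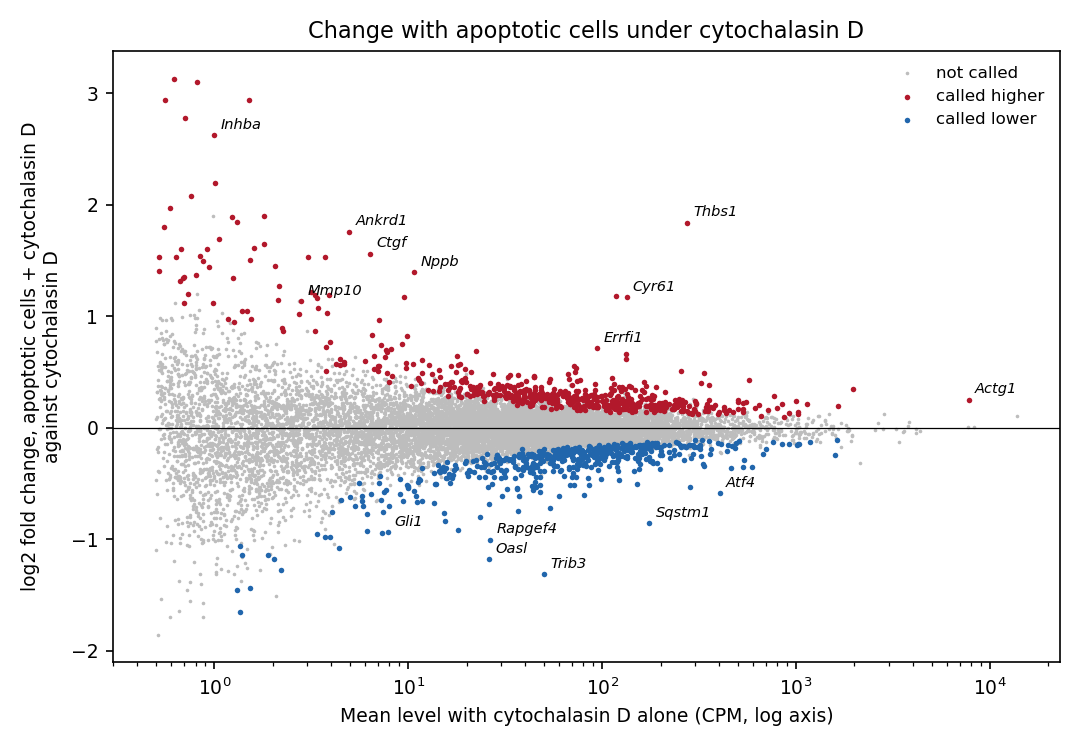
Each point is 1 gene with at least 0.5 CPM in the CD libraries: the horizontal axis is its mean level with cytochalasin D alone (CPM, log axis) and the vertical axis its log2 fold change with apoptotic cells under cytochalasin D. The 559 genes called higher are red, the 497 called lower are blue, and Thbs1 stands clear of all other genes at its level.

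Thbs1 stood out in the plot of change by level. It encodes thrombospondin-1, a matricellular glycoprotein that activates latent TGF-beta and can bridge apoptotic cells to phagocytes. Thbs1 stood at 275, 264, 265 and 291 CPM in the CD libraries and at 1036, 882, 953 and 1039 CPM in the ACD libraries. The groups were far from overlap, the lowest ACD value being 882 CPM against a highest CD value of 291 (log2 1.84, SE 0.049, edgeR adjusted p = 1.43e-17). Of 17 measured matricellular and proteoglycan genes, 2 rose, Thbs1 being 1 of them, and none fell (median log2 -0.051). Of 16 structural matrix and cross-linking genes 1 rose, a call lost without CD3 or ACD4. Of all expressed genes 4.34% were called higher and 3.86% lower, and single calls in such lists are near those shares.

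Targets of YAP, the cofactor that enters the nucleus when cells are spread or under tension, held several of the large rises. Of 21 measured YAP targets, 6 rose and 1 fell, against 4.34% and 3.86% of all expressed genes, and 5 of the rises held. Counts of every list below stand against the same shares. The fall did not hold without CD3, ACD2 or ACD3. The median log2 change over the list was 0.025. Cyr61 stood at 136, 129, 134 and 135 CPM in the CD libraries and at 341, 291, 274 and 295 CPM in the ACD libraries. This gene, also named Ccn1, encodes an integrin-binding matricellular protein, and its groups did not overlap (log2 1.17, SE 0.059, edgeR adjusted p = 5.81e-12). Ctgf stood at 9.35, 4.93, 5.16 and 6.04 CPM in the CD libraries and at 20.4, 20.4, 15.4 and 18.6 CPM in the ACD libraries. Ctgf, or Ccn2, is a close relative of Cyr61, and all 4 ACD values were above the CD values (log2 1.56), although its ACD mean of 18.7 CPM lay below the 20.2 CPM of untreated cells. Ankrd1 stood at 5.596, 5.07, 4.81 and 4.42 CPM in the CD libraries and at 17.4, 13.4, 16.1 and 19.8 CPM in the ACD libraries. Ankrd1 encodes an ankyrin-repeat cofactor that responds to stretch, and it moved from 4.97 to 16.7 CPM in the mean (log2 1.76, SE 0.16, edgeR adjusted p = 1.18e-07). Amotl2, an angiomotin relative that holds YAP in the cytoplasm and is itself a YAP target, rose less (116 ± 5.801 CPM in CD against 151 ± 11.9 in ACD; 0.39, edgeR adjusted p = 0.000188 on the log2 scale). CD1 was the highest of its CD libraries at 124 CPM. Vgll3, a cofactor of the TEAD factors that YAP also uses, rose from 132 ± 17.7 to 203 ± 12.1 CPM (log2 0.62, edgeR adjusted p = 3.49e-06). Arhgef17, an exchange factor that activates RhoA, is on both this list and that of regulators of actin and small GTPases: 134, 105, 124 and 111 CPM in CD stood against 326, 276, 283 and 184 in ACD (log2 1.18, SE 0.13, edgeR adjusted p = 1.15e-06).

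The cytoskeletal and adhesion genes moved in both directions. Among 27 measured MRTF and serum response factor targets 5 rose and none fell (median log2 0.049), but 2 of the rises held, and 2 were called without CD3 and 3 without ACD2. Pdlim5, a PDZ-LIM protein of actin bundles, had the largest of these rises: Pdlim5 stood at 313, 329.9, 334 and 362 CPM in the CD libraries and at 450.0, 478, 464 and 489.7 CPM in the ACD libraries (log2 0.49, SE 0.053, edgeR adjusted p = 1.2e-06). Fhl2, a LIM-domain cofactor, rose from 99.8 ± 6.53 to 121 ± 9.82 CPM (log2 0.28, edgeR adjusted p = 0.00307). Actg1 was called higher (log2 0.25, edgeR adjusted p = 0.0174) although its groups overlapped, and the call was lost without CD3 (0.0569), without ACD2 (0.0608) and with a robust fit (0.0883). Actb was not called (log2 0.10, edgeR adjusted p = 0.084), but it was called higher with no filter on low counts (0.0487), with the gene length trend removed (0.0432), without CD1 (0.0303), without ACD3 (0.0288) and without the 3 libraries that stood apart (0.0442). Of 27 regulators of actin assembly and small GTPases, 5 rose, 4 of them holding, and none fell. Beside Arhgef17 these included Rnd3, a GTPase-deficient protein that opposes RhoA signalling (44.7 ± 2.28 CPM in CD against 61.5 ± 5.26 in ACD), Cdc42ep3, an effector of Cdc42 (44.6 ± 4.69 CPM in CD against 60.8 ± 4.79 in ACD), and Rock2, a kinase that drives actomyosin contraction (301 ± 22.7 CPM in CD against 355 ± 13.96 in ACD). Their log2 changes were 0.47, 0.45 and 0.23. Of 23 integrin and focal adhesion genes 3 rose and 6 fell, with 1 rise and 4 falls holding; 1 rise was called without CD3, and 1 without the 3 libraries that stood apart. The rises included Lims1, which encodes PINCH1 of the integrin-linked kinase complex (log2 0.26, edgeR adjusted p = 0.00239). The falls included Itgb5, the integrin chain that pairs with alpha-v and binds the bridging protein MFG-E8 (468 ± 13.5 CPM in CD against 416 ± 12.1 in ACD; -0.17, edgeR adjusted p = 0.00328 on the log2 scale), Itga3, a laminin-binding integrin chain (log2 -0.26), and the tensins Tns1 and Tns3, which tie integrins to actin (log2 -0.25 and -0.24). Itga3 missed the threshold when only the 8 libraries compared were fitted (adjusted p = 0.0532).

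Growth factor signalling genes gave the highest share of rises of any list with at least 10 measured members. Of 20 EGF receptor ligands and MAPK feedback genes, 8 rose and none fell (median log2 0.15); 4 held, and 5 were called without ACD3. Errfi1 stood at 93.7, 94.99, 96.2 and 90.9 CPM in the CD libraries and at 155, 148, 153 and 159 CPM in the ACD libraries. Errfi1, or MIG6, is a feedback inhibitor of the EGF receptor, and the groups were well apart (log2 0.71, SE 0.046, edgeR adjusted p = 5.83e-10). Hbegf stood at 8.07, 8.68, 7.21 and 6.79 CPM in the CD libraries and at 11.5, 10.3, 14.2 and 13.4 CPM in the ACD libraries. Hbegf encodes a membrane-anchored EGF receptor ligand and also did not overlap (log2 0.69, SE 0.14, edgeR adjusted p = 0.0022). Dusp5 stood at 76.2, 76.5, 76.2 and 66.1 CPM in the CD libraries and at 109, 107, 106 and 106 CPM in the ACD libraries. It encodes a nuclear phosphatase of ERK, and CD4 was the lowest library (log2 0.54, edgeR adjusted p = 5.49e-07). Dusp6, the cytoplasmic ERK phosphatase, rose from 16.5 ± 0.712 to 22.03 ± 1.85 CPM. Of 27 immediate early genes, 4 rose and 2 fell, with 3 and 1 holding; 1 fall was called without CD3 and 1 without ACD4. The AP-1 subunits Fosl1 (355 ± 32.6 CPM in CD against 463 ± 42.1 in ACD) and Fosl2 (32.9 ± 2.91 CPM in CD against 42.4 ± 1.59 in ACD) were among the rises (log2 0.38 and 0.37), and Atf3, a stress-induced factor of the same family, fell (13.5 ± 2.21 CPM in CD against 8.404 ± 1.07 in ACD; log2 -0.67).

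Secreted peptides and proteases added some of the largest fold changes, at low levels. Inhba stood at 0.879, 1.18, 1.06 and 0.872 CPM in the CD libraries and at 7.71, 5.28, 5.41 and 6.18 CPM in the ACD libraries. It encodes the beta-A chain of activin and inhibin, and was low before corpses were added (log2 2.63, SE 0.33, edgeR adjusted p = 9.22e-06). Nppb stood at 12.5, 10.7, 9.47 and 10.3 CPM in the CD libraries and at 30.7, 26.99, 28.02 and 26.5 CPM in the ACD libraries. Nppb encodes the precursor of B-type natriuretic peptide, and no ACD value came near the CD values (log2 1.39, SE 0.12, edgeR adjusted p = 4.79e-08). Of 7 measured natriuretic, vasoactive and secreted peptide genes 4 rose and none fell (median log2 0.48); 2 rises held, and 2 were called without CD2, ACD1 or ACD4 and when only the 8 libraries compared were fitted. Among 19 metalloprotease, plasminogen and inhibitor genes, 3 rose, all holding, and 2 fell, with no fall called without CD2, CD3, ACD3 or ACD4. The rises included Mmp10, or stromelysin-2 (2.81 ± 0.339 CPM in CD against 6.17 ± 0.452 in ACD; log2 1.13, edgeR adjusted p = 0.00113), and Mmp12, the macrophage elastase (8.14 ± 1.26 CPM in CD against 13.4 ± 1.45 in ACD; log2 0.70). Inhba was also 1 of the 2 rises among 15 TGF-beta and BMP targets, of which 1 fell, a call kept only with all libraries or without CT2, CT4, CD4 or ACD3.

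**Figure D2:**
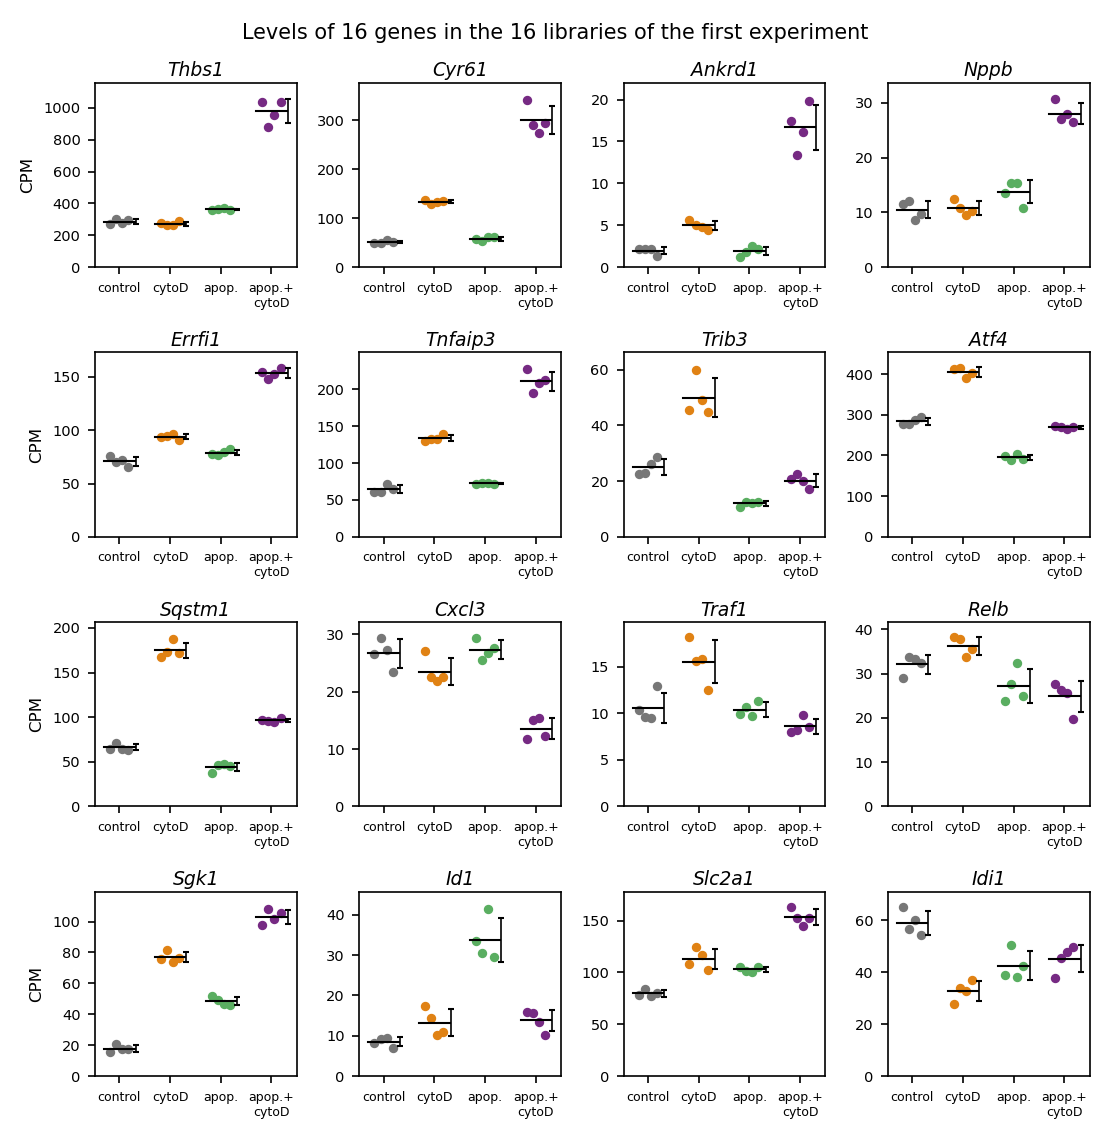
Levels of 16 genes (CPM, linear axes from 0) in the 4 libraries of each group: control, cytochalasin D, apoptotic cells, and both. Points are libraries, lines are means and bars are 1 SD; in the upper row the 4 libraries with both treatments lie above all others for Thbs1, Cyr61, Ankrd1 and Nppb.

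Inflammatory genes were mixed, and more feedback genes of NF-kappaB fell than rose. NF-kappaB switches on both chemokines and its own inhibitors, so transcripts such as Nfkbia and Relb are common readouts of its activity. Of 21 NF-kappaB feedback and SOCS genes 8 fell and 1 rose (median log2 -0.12), and every one of these calls held. Relb stood at 38.1, 37.7, 33.7 and 35.6 CPM in the CD libraries and at 27.7, 26.3, 25.7 and 19.7 CPM in the ACD libraries. Relb is a subunit of the alternative NF-kappaB pathway, and its groups did not overlap (log2 -0.54, SE 0.10, edgeR adjusted p = 0.00104). Traf1 stood at 18.1, 15.6, 15.8 and 12.5 CPM in the CD libraries and at 7.98, 8.22, 9.76 and 8.496 CPM in the ACD libraries. Traf1 encodes an adaptor of TNF receptors; its highest ACD value was under its lowest CD value (log2 -0.84, SE 0.13, edgeR adjusted p = 0.000107). Nfkbia, the classical inhibitor of NF-kappaB, went from 198 ± 7.803 to 154 ± 7.79 CPM (log2 -0.37, edgeR adjusted p = 9.22e-06). Nfkbie, a second such inhibitor, fell by 0.49, Tnfaip2 by 0.66, and Birc3, a ubiquitin ligase of TNF signalling, by 0.30 on the log2 scale. The exception was Tnfaip3, which encodes A20, the deubiquitinase that ends NF-kappaB signalling. Tnfaip3 stood at 129.5, 132, 133 and 139 CPM in the CD libraries and at 227, 195, 208 and 212 CPM in the ACD libraries, all 4 higher with corpses (log2 0.66, SE 0.052, edgeR adjusted p = 1.19e-08).

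Of 16 measured inflammatory cytokines, chemokines and mediators, 5 fell and 3 rose, with 4 and 1 holding; without CD2 only 1 rise was called. Cxcl1 stood at 21.7, 17.4, 16.4 and 16.4 CPM in the CD libraries and at 7.82, 12.8, 9.41 and 8.92 CPM in the ACD libraries. Cxcl3 stood at 27.1, 22.6, 21.8 and 22.5 CPM in the CD libraries and at 11.7, 14.97, 15.4 and 12.2 CPM in the ACD libraries. Both encode chemokines that draw neutrophils, and neither overlapped (log2 -0.92, edgeR adjusted p = 0.000145, and log2 -0.80, edgeR adjusted p = 1.41e-05). Icam1, an adhesion molecule for leukocytes, fell from 335 ± 10.8 to 264 ± 4.38 CPM and Csf1, the macrophage growth factor, from 141 ± 5.92 to 123 ± 3.36 CPM (log2 -0.34 and -0.20). Ptgs2, the inducible cyclooxygenase, rose (12.8 ± 1.49 CPM in CD against 19.1 ± 2.51 in ACD; log2 0.56, edgeR adjusted p = 0.00506). Among 16 interferon-responsive genes 3 fell and none rose (median log2 -0.24), 2 of them holding; 5 were called without CD4. Oasl stood at 24.3, 31.02, 24.2 and 25.5 CPM in the CD libraries and at 10.6, 9.57, 12.99 and 12.9 CPM in the ACD libraries. Oasl encodes a relative of the oligoadenylate synthetases, and it had one of the largest falls of any expressed gene with a symbol (log2 -1.18, SE 0.11, edgeR adjusted p = 1.86e-07). Parp14, a mono-ADP-ribosyltransferase, fell by 0.47 on the log2 scale. Genes listed here as restraining inflammation were split: of 17, 4 rose and 3 fell, 3 and 1 holding, and 1 fall was called without ACD4. Thbs1, described above, is among these rises. Anxa1, the annexin that limits leukocyte entry, rose (1004 ± 22.7 CPM in CD against 1183 ± 56.9 in ACD), while Lgals3, or galectin-3, fell (154 ± 17.3 CPM in CD against 119 ± 10.8 in ACD).

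In the integrated stress response, ATF4 raises genes of amino acid supply and tRNA synthetases, and more of these genes fell with corpses than rose. Of 24 measured genes of this response, 9 fell and 1 rose (median log2 -0.23); 6 falls held, and the single rise was not called without CD1, CD2, ACD3 or ACD4. Trib3 stood at 45.4, 60.1, 49.2 and 45.02 CPM in the CD libraries and at 20.8, 22.7, 19.9 and 17.2 CPM in the ACD libraries. Trib3 encodes a pseudokinase that ATF4 induces, and CD2 was the highest library (log2 -1.31, SE 0.10, edgeR adjusted p = 1.11e-08). Atf4 stood at 412, 415, 389.9 and 404 CPM in the CD libraries and at 273, 271, 264 and 269 CPM in the ACD libraries. The groups were narrow and did not overlap (log2 -0.59, SE 0.036, edgeR adjusted p = 2.41e-10). Further falls were in Nupr1, a small stress-induced chromatin protein (53.8 ± 3.98 CPM in CD against 32.7 ± 1.94 in ACD), Ddit4, an inhibitor of mTORC1 (26.04 ± 2.003 CPM in CD against 16.3 ± 3.002 in ACD), and Sesn2, a leucine sensor (32.4 ± 3.39 CPM in CD against 22.01 ± 1.42 in ACD), by 0.72, 0.69 and 0.55 on the log2 scale. Of 20 cytosolic tRNA synthetase genes 7 fell and none rose (median log2 -0.031), 3 of them holding, and 4 were called without CD3 and 4 without ACD2. Those for alanine, cysteine and tyrosine, Aars, Cars and Yars, fell by 0.36, 0.35 and 0.28. The CD levels of Trib3 and Atf4 lay above their CT levels, and the ACD levels were nearer to CT: Trib3 averaged 25.1 CPM in CT, 49.9 in CD and 20.2 in ACD, and Atf4 284, 405 and 269. Of 22 chaperones and related genes of the unfolded protein response 1 fell, Herpud1 of endoplasmic reticulum degradation (75.7 ± 3.41 CPM in CD against 60.4 ± 3.66 in ACD). That is near the 3.86% called lower among all expressed genes.

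Other stress programmes gave smaller counts. Of all expressed genes 4.34% were called higher and 3.86% lower, and single calls in the lists of this paragraph are near those shares. Of 20 NRF2 targets 3 fell and 1 rose, with 2 and 1 holding. Sqstm1 stood at 168, 173, 187 and 172 CPM in the CD libraries and at 96.8, 95.9, 94.9 and 98.8 CPM in the ACD libraries. Sqstm1 encodes the autophagy receptor p62, and its 4 ACD libraries lay close together and far under the CD libraries (log2 -0.86, SE 0.059, edgeR adjusted p = 1.5e-09). Nfe2l2, which encodes NRF2, fell from 180.5 ± 10.5 to 147 ± 1.78 CPM (log2 -0.30, edgeR adjusted p = 3.42e-05). Of 20 p53 targets 4 fell and 1 rose, 3 of the falls holding. Sesn2, counted above in the integrated stress response, was among these falls, and another of them is also counted below in the BCL2 and caspase families. The number of rises was 0 without CD2 or ACD4, 2 without ACD1 and 3 without CD4. Tp53inp1, an autophagy and stress protein, was among the falls (36.9 ± 1.52 CPM in CD against 22.2 ± 3.09 in ACD; log2 -0.75, edgeR adjusted p = 8.51e-06). Heat shock genes went up in 3 of 18 and down in 1, with 2 rises holding and the fall lost without CD1, CD2, ACD3 or ACD4. The rises included the chaperones Hspa8 (1955 ± 49.2 CPM in CD against 2480.1 ± 100.4 in ACD, log2 0.34, edgeR adjusted p = 4.47e-07) and Hsp90aa1 (log2 0.19). Among 21 genes of the BCL2 and caspase families 5 fell and none rose (median log2 -0.11), 4 of them holding, and 2 were called without the 3 libraries that stood apart. They had opposite roles: Bcl2l2 protects cells (55.8 ± 4.33 CPM in CD against 44.2 ± 1.04 in ACD), while Bcl2l11, or BIM, and Bmf promote death (Bcl2l11 71.1 ± 3.19 CPM in CD against 58.5 ± 5.87 in ACD, and Bmf 9.44 ± 1.67 CPM in CD against 5.995 ± 0.456 in ACD). The calls of Bcl2l11 (0.0609) and Bmf (0.0677) were lost without those 3 libraries.

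Genes of lipid and sugar use gave a few small rises. Cholesterol synthesis genes are driven by SREBP-2 when sterol is short. Of 22 measured, 4 rose and 1 fell (median log2 0.01), with 3 rises holding; the fall was not called without CD2, and 2 rises were called without the 3 libraries that stood apart. Idi1 stood at 27.7, 34.04, 32.7 and 36.9 CPM in the CD libraries and at 37.9, 45.4, 47.7 and 49.8 CPM in the ACD libraries. Idi1 encodes an isomerase of the pathway (log2 0.45, SE 0.10, edgeR adjusted p = 0.00524), and it lost its call without the 3 libraries (adjusted p = 0.0677). Abca1, the LXR-driven exporter of cholesterol that phagocytes use after corpse uptake, fell from 122 ± 3.88 to 88.7 ± 6.69 CPM (log2 -0.47, edgeR adjusted p = 8.51e-06), and it was the only call among 7 LXR and efflux genes. Of 21 glycolysis and glucose or lactate transport genes 5 rose, all holding, and none fell; 3 were called without the 3 libraries. Slc2a1 stood at 108, 125, 117 and 103 CPM in the CD libraries and at 163, 153, 145 and 152 CPM in the ACD libraries. Slc2a1 encodes the glucose transporter GLUT1 (log2 0.44, SE 0.055, edgeR adjusted p = 7.94e-06). Hk2, or hexokinase-2, rose from 138 ± 3.69 to 179 ± 0.723 CPM, Pfkfb3, a regulator of phosphofructokinase, from 126 ± 5.99 to 149 ± 8.81, and Slc16a1, the lactate transporter MCT1, from 242 ± 10.8 to 275 ± 5.32. Slc16a1 lost its call without the 3 libraries (adjusted p = 0.0691). Hypoxia targets rose in 4 of 17 and fell in 1. Slc2a1 and another of these rises are also counted in the glycolysis list, and the fall, Ddit4, in the integrated stress response. Of the rises 2 held, 2 were called without CD1, CD3 or ACD4, and 1 without the 3 libraries.

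Ion transport was of interest to the study, which set the chloride importer Slc12a2 apart for its second experiment. Slc12a2 stood at 22.9, 33.9, 31.03 and 36.2 CPM in the CD libraries and at 36.1, 41.96, 37.2 and 42.4 CPM in the ACD libraries. The groups overlapped, and the call (log2 0.33, edgeR adjusted p = 0.045) was lost with adjusted p of 0.0509 to 0.144 without any 1 of CT2, CT4, CD1, CD2, CD3, AC1, AC4, ACD2, ACD3 or ACD4, and at 0.0639 with limma-voom. Of 23 chloride transport and volume sensing genes, 2 rose and 3 fell, with 1 and 1 holding, and 1 fall was called without CD1, CD3, ACD3 or ACD4. The rise that held was Sgk1, a kinase of ion transport and cell volume: Sgk1 stood at 75.6, 81.5, 74.02 and 76.2 CPM in the CD libraries and at 97.6, 108, 102 and 105 CPM in the ACD libraries (log2 0.42, SE 0.063, edgeR adjusted p = 9.85e-05). Of 11 polyamine genes 2 rose, 1 holding, and 1 was called without ACD4. Atp13a3, a polyamine transporter, was the larger (324 ± 32.2 CPM in CD against 429 ± 41.2 in ACD; log2 0.40, edgeR adjusted p = 0.000433).

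Some genes that sense, bind or digest corpses passed the test, more of them lower than higher, where 8.20% of all expressed genes passed. Of 21 apoptotic cell recognition and engulfment genes 3 fell, all holding, and 1 rose, a call lost without CD1, CD2, CD3 or any 1 ACD library. The falls were Abca1 and Itgb5, above, and Tyro3, a TAM-family receptor of bridging proteins (99.05 ± 7.76 CPM in CD against 81.9 ± 3.44 in ACD; log2 -0.27, edgeR adjusted p = 0.00866). Of 15 genes for purine and lysophospholipid find-me signals 1 rose and 2 fell, all holding. Lpar1 stood at 20.2, 21.5, 24.3 and 22.98 CPM in the CD libraries and at 34.05, 33.6, 39.7 and 35.8 CPM in the ACD libraries. Lpar1 encodes a receptor of lysophosphatidic acid, and its groups did not overlap (log2 0.69, SE 0.073, edgeR adjusted p = 1.11e-06). The sphingosine-1-phosphate receptor S1pr2 (121 ± 4.18 CPM in CD against 101 ± 8.59 in ACD) and Panx1, the channel that releases nucleotides (74.96 ± 4.51 CPM in CD against 61.5 ± 1.95 in ACD), fell by 0.26 and 0.29 on the log2 scale. Of 29 lysosome genes 3 fell, all holding, and none rose; 6 were called without CD4. These were Psap, the precursor of the saposins (1031 ± 7.92 CPM in CD against 931 ± 27.6 in ACD), Ctsd, the protease cathepsin D (270.3 ± 9.504 CPM in CD against 239.8 ± 9.28 in ACD), and Ctsa, or cathepsin A (482 ± 16.2 CPM in CD against 425 ± 15.6 in ACD). Their log2 changes were -0.15, -0.17 and -0.18, and Ctsd lost its call without the 3 libraries that stood apart (adjusted p = 0.0501).

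Some mitosis genes rose by small amounts, and genes of DNA replication gave few calls. Of 28 mitosis genes 26 had a positive log2 change, 6 rose and none fell (median log2 0.11). The number called was 12 without CD4, 3 without ACD4, 3 without the 3 libraries that stood apart and 3 when only the 8 libraries compared were fitted, and 3 held. Ccnb1 stood at 267, 265, 269 and 267 CPM in the CD libraries and at 318, 311, 311 and 314 CPM in the ACD libraries. It encodes the cyclin of mitotic entry (log2 0.23, SE 0.038, edgeR adjusted p = 0.000257). Kif23, a motor of the central spindle, and Anln, the actin-binding anillin of the cleavage furrow, rose by 0.21 and 0.16 on the log2 scale. Anln lost its call without the 3 libraries (adjusted p = 0.0524). Genes of G1-S and DNA replication gave 1 rise and 1 fall of 31, the rise lost without CD2 and the fall without CD2, CD3, AC2, AC4, ACD1, ACD3 or ACD4, and Krueppel-like factors 1 rise of 10.

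**Figure D3:**
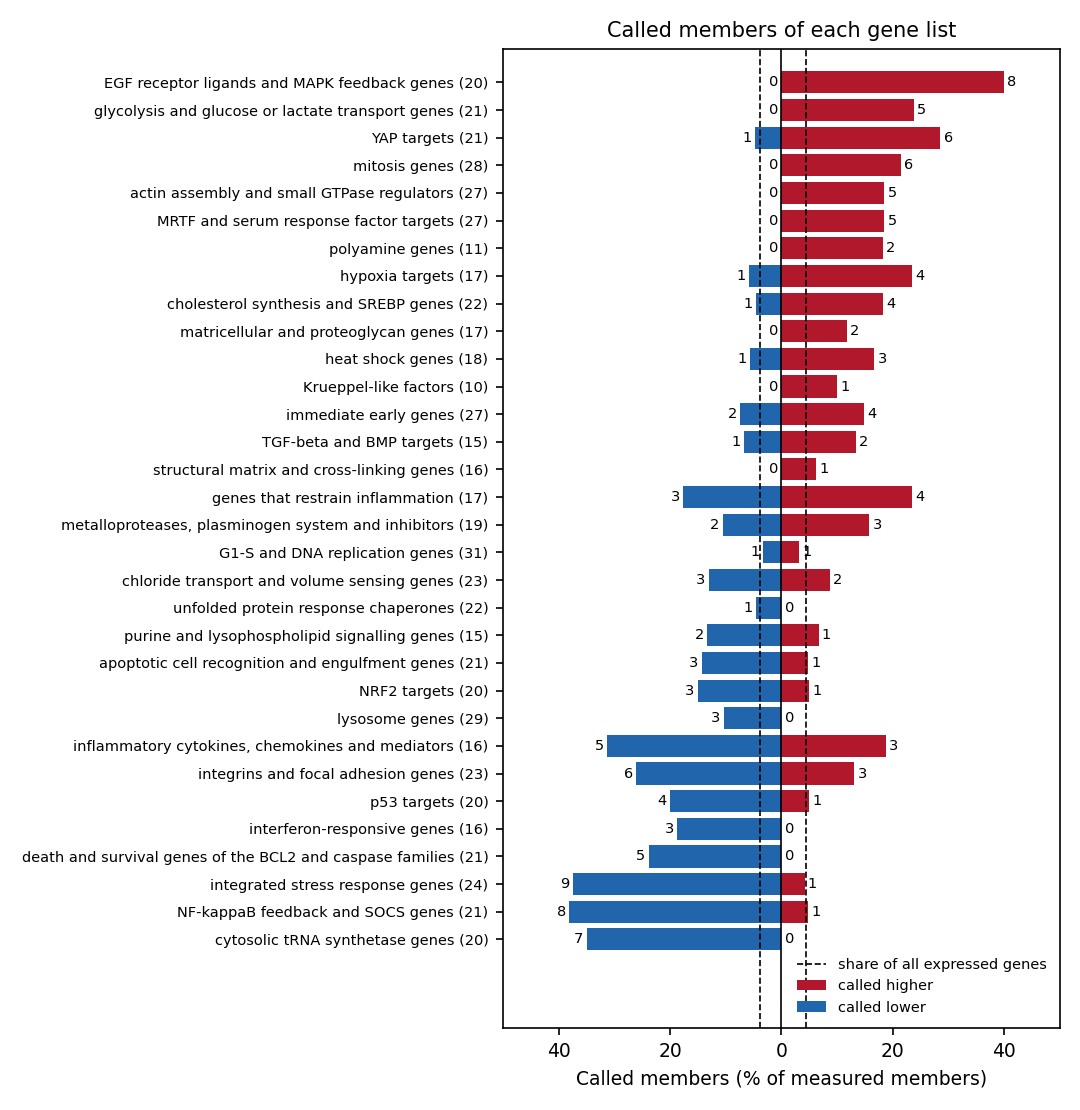
Share of measured members called higher (red, right) or lower (blue, left) in ACD against CD for the 32 lists with at least 10 measured members, whose number is in brackets; the digits at the bars are counts of genes. Dashed lines mark the shares over all expressed genes, 4.34% higher and 3.86% lower. EGF receptor ligands and MAPK feedback genes reach farthest to the right with 8 of 20, and NF-kappaB feedback and SOCS genes farthest to the left with 8 of 21.

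The same corpses were also given to cells without the drug, and the difference between the corpse effects with and without cytochalasin D was tested as an interaction; the pair of effects shares no library. Without the drug 1711 of the same 12883 genes were called (13.3%), 836 higher (6.49%) and 875 lower (6.79%). The effects were called in the same direction for 155 rises and 172 falls. For 33 genes corpses went with a rise under the drug and a fall without it, and for 6 with the opposite. The difference itself was called for 598 genes (4.64%), 397 more positive under cytochalasin D (3.08%) and 201 more negative (1.56%). That count depended on single libraries: it ran from 251 without AC3 to 1645 without CD4, was 274, 293 and 351 without CD1, CD2 and CD3, 288 without CT1, 366 without AC4, 275 without ACD3 and 266 without ACD4, and 120 without the 3 libraries that stood apart. With each library left out in turn, 149 positive and 79 negative differences were called every time. Across expressed genes the log2 effect without the drug correlated with gene length (Spearman -0.249), against 0.0256 under the drug. With the length trend removed 541 differences were called. The cause of that correlation was not tested. Of the 559 rises under the drug, 141 also had a called positive difference, and of the 497 falls, 61 a negative one.

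On the log2 scale the effects on Thbs1 and most of the YAP-linked genes named above were more positive when the drug was present. Thbs1 rose in both settings, from 287 ± 15.2 to 363 ± 5.45 CPM without the drug (log2 0.34, edgeR adjusted p = 5.24e-05), and the log2 effects differed by 1.497, edgeR adjusted p = 1.68e-12. Ankrd1 was at 2.18, 2.18, 2.12 and 1.35 CPM in CT and 1.24, 1.86, 2.499 and 2.15 CPM in AC, which overlapped, and the effects differed by 1.77, edgeR adjusted p = 0.00051. Cyr61 (51.6 ± 2.72 CPM in CT, 57.8 ± 4.13 in AC) and Nppb (10.5 ± 1.57 and 13.8 ± 2.13) differed by 1.001, edgeR adjusted p = 4.73e-07, and by 1.003, edgeR adjusted p = 0.00163. Vgll3 fell without the drug, from 128 ± 7.73 to 98.1 ± 6.37 CPM, opposite to its rise with it (difference 1.003, edgeR adjusted p = 3.43e-06). Ctgf rose in both settings too (log2 0.88 without the drug), and its difference of 0.68, edgeR adjusted p = 0.0401, was not called in every leave-out; in CPM its mean rose more without the drug, by 17.03 against 12.3 CPM. Amotl2, Pdlim5, Rnd3, Cdc42ep3 and Lims1 also had positive differences, from 0.40 to 0.65. Arhgef17 went the other way: it rose by 1.403 without the drug and 1.18 with it on the log2 scale, and the difference was not called (-0.23, edgeR adjusted p = 0.483). Of 21 YAP targets 6 had a called positive difference and none a negative one, 4 of them in every leave-out, and 4 were called without CT1, CT4, CD3 or ACD4 and without the 3 libraries. Among signalling genes, Errfi1 (0.55, edgeR adjusted p = 2.56e-05), Hbegf (0.98, edgeR adjusted p = 0.00656) and Tnfaip3 (0.49, edgeR adjusted p = 0.000487) responded more under the drug. Dusp6, Fosl1, Fosl2 and Ptgs2 rose in both settings with differences that were not called, between -0.24 and 0.084.

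Several sterol genes fell without the drug and had a more positive effect with it. Of 22 cholesterol genes 9 fell and none rose when corpses came without the drug, 4 rose and 1 fell with it, and 9 had a called positive difference, 8 of them in every leave-out. Idi1 fell from 65.1, 56.6, 59.97 and 54.4 CPM to 38.96, 50.4, 38.1 and 42.3 CPM without the drug (log2 -0.48, edgeR adjusted p = 0.00164), and the effects differed by 0.93, edgeR adjusted p = 0.000338. The effects on Cxcl3 and Traf1 were more negative under the drug: Cxcl3 stood at 26.6 ± 2.52 CPM in CT and 27.3 ± 1.59 in AC (difference -0.83, edgeR adjusted p = 0.00145), and Traf1 at 10.6 ± 1.58 and 10.4 ± 0.765 (difference -0.83, edgeR adjusted p = 0.011). Ddit4 rose with corpses alone (log2 0.39, edgeR adjusted p = 0.0223) and fell under the drug, a difference of -1.08, edgeR adjusted p = 0.000452, and Pdk4, a kinase that restrains pyruvate oxidation, did likewise (-0.83, edgeR adjusted p = 0.00034). Trib3 and Atf4 fell in both settings. Trib3 fell by 1.05 without the drug and 1.31 with it (difference -0.26, edgeR adjusted p = 0.324), and Atf4 by 0.54 and 0.59 (difference -0.049, edgeR adjusted p = 0.617); of 24 genes of the integrated stress response 12 fell and 3 rose without the drug, and 1 had a called difference.

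Some genes answered corpses mainly in cells free of the drug. In all, 111 genes rose without it, had a called negative difference, and were not called under it. The Id genes, which encode inhibitors of helix-loop-helix factors and are early targets of BMP signalling, are an example chosen after their values were seen. Id1 stood at 8.25, 9.097, 9.56 and 7.02 CPM in CT and 33.4, 30.5, 41.4 and 29.6 in AC, but at 17.3, 14.4, 10.3 and 11.02 in CD and 15.96, 15.6, 13.5 and 10.2 in ACD. It was higher in every AC library than in any CT library, and its CD and ACD values overlapped (difference -1.92, edgeR adjusted p = 2.17e-05). Id3 averaged 42.2 ± 4.07 CPM in CT, 118 ± 18.95 in AC, 60.9 ± 13.8 in CD and 58.3 ± 15.9 in ACD (difference -1.55, edgeR adjusted p = 0.000273), and Id2 differed by -0.81, edgeR adjusted p = 0.000601. The 3 Id genes are part of the 4 negative differences among 15 TGF-beta and BMP targets, all made in every leave-out, while Inhba of the same list rose under the drug, with no called difference (2.44, edgeR adjusted p = 0.165). The effects on Sgk1 differed on the log2 scale and were near each other in CPM. Its log2 effect was 1.45 without the drug and 0.42 with it (difference -1.02, edgeR adjusted p = 1.26e-06), and its mean rose by 30.7 CPM without the drug and 26.3 CPM with it, from starting levels of 17.7 CPM in CT and 76.8 in CD.

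**Figure D4:**
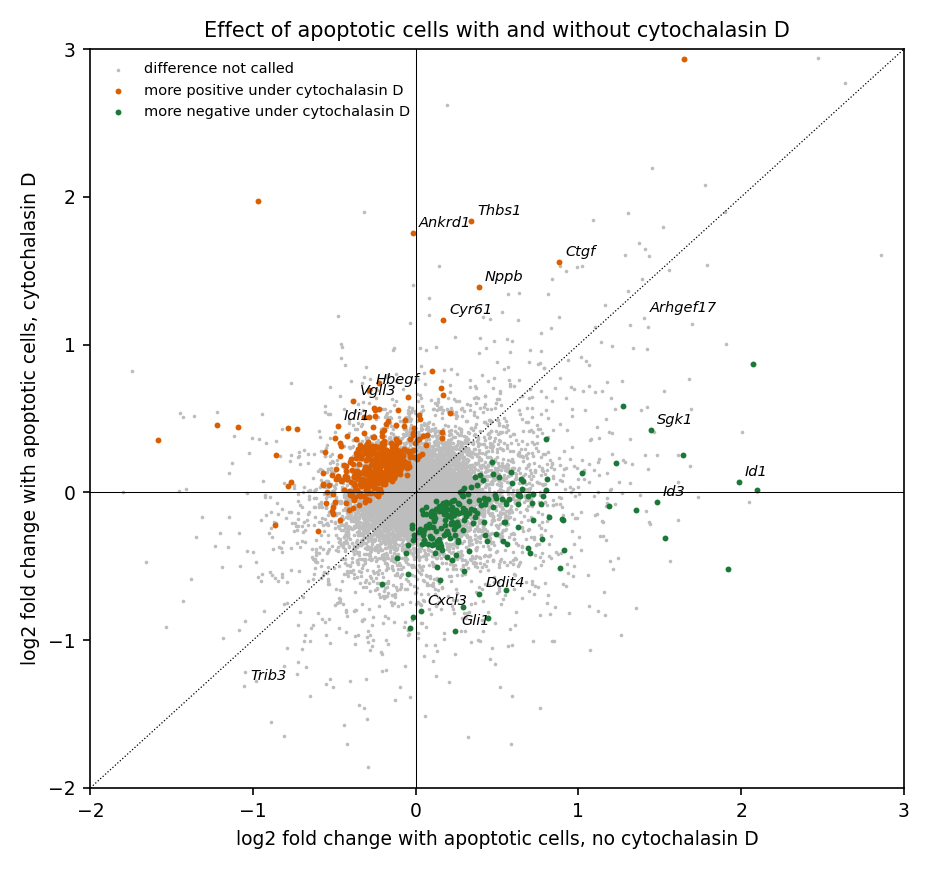
Each point is 1 gene with at least 0.5 CPM in the CD libraries: the log2 fold change with apoptotic cells without cytochalasin D (horizontal) and with it (vertical), with 2 genes outside the axes. The 397 genes with a called positive difference (orange) lie above the dotted line of equal effects and the 201 with a negative one (green) lie below it, while Arhgef17 and Trib3 lie near it.

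Genes near 0 in the CD libraries were set aside because human reads from the corpses can align to hamster genes and look like induction. Of 223 tested genes under 0.5 CPM in CD, 73 (32.7%) were called higher with corpses and none lower. Genes this low in CD pass the filter on low counts mainly through groups where they are higher, so the choice largely fixes that direction and share. Of these 73, 47 had no symbol, 18 had no count at all in the CD libraries, and 29 of the 61 matched to the reference were pseudogenes. Their mean ACD levels ran from 0.680 to 7.09 CPM with a median of 1.29. In the cells without the drug, 69 of the 73 were called higher in AC, against 6.49% of all expressed genes. Of the 73, 69 were also near 0 in CT, so the filter on low counts largely fixes that direction as well. Where both CT and CD were at or near 0 counts, the difference between the effects was too imprecise to be read. It was called for 0 of the 73. The symbols with the highest levels include known T lymphocyte genes. Lck, the kinase of the T cell receptor, had 0 counts in the 4 CD libraries and 168 in the ACD libraries, at least 60.1-fold higher against a floor of 3 counts over the group, and stood at 3.86, 2.21, 2.53 and 3.69 CPM in ACD1 to ACD4. Zap70, the next kinase in that pathway, had 0 and 170 counts (at least 60.8-fold), and 5.104, 2.45, 2.32 and 1.97 CPM in the ACD libraries. Lef1, a transcription factor of thymocytes, had 1 count against 125, a ratio of 134.2 with a 95% counting interval of 23.7 to 5342. Others were Igfbp2, a binding protein of insulin-like growth factors, with 1 count against 239 (ratio 257, interval 45.6 to 10180.0), Cyfip2, a subunit of the WAVE complex, with 0 against 156, Evl, an actin regulator, with 0 against 116, Atp2a3, a calcium pump, with 0 against 102, and Myo7b, an unconventional myosin, with 6 against 103.

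The share of counts in genes near 0 is given as a description of size, since these genes were chosen for low values in CD and a higher share in ACD follows in part from that choice. It was 663 ± 15.5 ppm in the CD libraries and 902 ± 19.8 ppm in the ACD libraries (SD, n = 4 each), a difference of 238 ppm. The 22 T lymphocyte markers, taken whole whatever their level in CD, summed to 43.4 to 48.0 ppm in CD and 51.0 to 58.1 in ACD (exact permutation test, two-sided, p = 0.0286, the smallest it can give). Adjustment over 4 tests gave 0.0381. Those 4 include shares of genes chosen for low values in CD, so the adjusted value is not relied on. Of these markers 14, including Cd3d, Cd3e, Ptprc, Lck and Zap70, were at 0 in all CD libraries, while Cd3g, Cd2, Cd5 and Cd6 were at 0 in all ACD libraries. Nearly all of the CD sum came from 4 markers present without corpses, so these do not mark Jurkat RNA here. Tcf7, Themis, Lat and Cd28 averaged 19.6, 13.0, 12.9 and 1.18 CPM in CD and 21.2, 11.0, 11.7 and 1.96 in ACD. None of the 4 was called. The 18 markers that were near 0 in CD stood at 0.126 ± 0.166 ppm in CD and 9.79 ± 1.26 ppm in ACD. They were chosen by that level, which largely fixes the outcome of a test, so no p-value is given for them. With corpses, genes near 0 in cells without corpses took 860 ± 37.5 ppm without the drug and 805 ± 18.8 ppm with it (exact p = 0.0571), a comparison added after the data were seen. How much corpse RNA also enters the counts of expressed genes was not tested. The 44 identifiers without a symbol among the rises of at least 2-fold lay at a median of 1.24 CPM in CD.

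**Figure D5:**
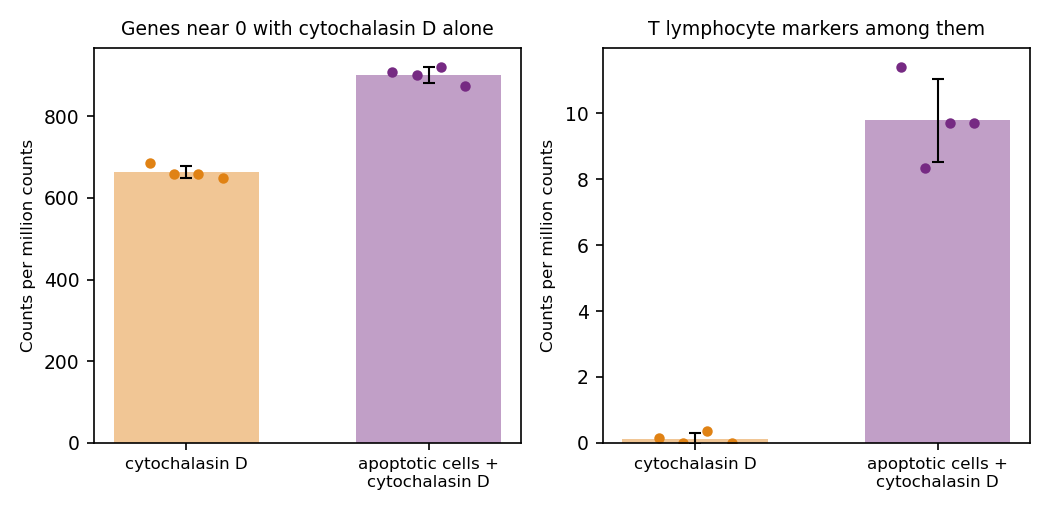
Share of all counts (ppm, bars from 0) in the genes near 0 with cytochalasin D alone (left) and in the T lymphocyte markers among them (right), in the cytochalasin D libraries and those with apoptotic cells as well. Bars are means, whiskers 1 SD and points the 4 libraries of each group. The genes were chosen for low values in the cytochalasin D libraries, where they took 663 ppm against 902 ppm with apoptotic cells as well.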

How the data were processed

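Per the labels, total RNA of LR73 cultures was made into TruSeq libraries and sequenced as 75 bp paired-end reads. The deposited values are raw counts of fragments per gene name, which the authors made with featureCounts 1.5.0 over exons, with both ends aligned and no strand option, per the file headers. STAR, FastQC and DESeq2 are also named in the submitters' processing notes, and the genome build is not given in the sources used here. Such counts do not part reads of overlapping or near-identical genes, nor human from hamster reads. Of 26776 gene names in the table, 11415 carry an identifier only, and 22328 matched RefSeq names of CriGri-PICRH-1.0, used for names and gene types only. A blank-named row (0.0249% to 0.0445% of counts) was left out, and 0 columns belonged to other samples.

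All 16 libraries of the first experiment were fitted with edgeR 4.0.16 in R 4.3.3 (TMM factors, filterByExpr with minimum count 10 and minimum total 15, quasi-likelihood test on group alone, n = 4 per group), leaving 13106 genes and a biological coefficient of variation of 7.04%. Adjusted p-values are Benjamini-Hochberg over all genes tested, calls are at 0.05, and CPM are TMM-scaled. Near 0 means a mean under 0.5 CPM in the CD libraries. Intervals on counts (95%) and floors take in counting error alone. Shares of raw counts, in ppm, were compared with exact two-sided permutation tests over 70 assignments. Alternatives were DESeq2 1.42.0, limma-voom (limma 3.58.1), RLE factors, other filters and thresholds, a robust fit, a replicate block, removal of the trend with gene length, the 8 libraries alone and each library left out. Leaving out the 3 libraries that stood apart was added after seeing the data. The edgeR step was tested on simulated data.

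The comparison, the 38 gene lists (4 of them cell type markers) and the rule for named genes were chosen with earlier results of these data known. For the 15 largest changes and the 12 largest differences between effects in each direction, genes needed a symbol and an adjusted p under 0.05. They also needed at least 4 CPM in the higher group and no overlap between the 4 and 4 libraries. Up to 5 called members per list and direction were added, overlapping or not. So were the 8 symbols near 0 with the highest ACD means. A fixed set, which included Actb, Actg1, Slc12a2, Slc2a1, Slc16a1, Sgk1 and Thbs1, was added in any case. The text names a subset of all these genes. Id1, Id2 and Id3 fall outside the rule, as do the marker genes other than Pdgfra, S100a4, Lck, Zap70 and Lef1. Some items are not reported here.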

Additional observations from a re-analysis of the deposited data

Results flagged for a closer look

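The effect of apoptotic cells differed with and without cytochalasin D by the interaction test for 35 of the 98 genes named, and the log2 differences follow. Many of these genes were named for that difference, so the count is no measure of how common such differences are. Values above 0 mean a more positive effect under the drug. Among matrix, YAP-linked and cytoskeletal genes, Thbs1 by 1.497, Ankrd1 by 1.77, Cyr61 by 1.001, Nppb by 1.003, Vgll3 by 1.003 and Amotl2 by 0.40, and Pdlim5 by 0.56, Rnd3 by 0.65, Cdc42ep3 by 0.52, Lims1 by 0.48, Ctgf by 0.68, Rock2 by 0.36 and Fhl2 by 0.31. Among signalling genes, Errfi1 by 0.55, Hbegf by 0.98, Tnfaip3 by 0.49, Traf1 by -0.83, Cxcl3 by -0.83, Lgals3 by -0.51, Dusp5 by 0.33, Cxcl1 by -0.88 and Tyro3 by -0.32. Among stress, metabolic and transport genes, Ddit4 by -1.08, Idi1 by 0.93, Sgk1 by -1.02, Pdk4 by -0.83, Atp13a3 by 0.72, Hk2 by 0.21 and Bcl2l11 by -0.47. Others were Gli1 by -1.18, Snx18 by 0.81 and Kif23 by -0.26, and Id1 by -1.92, Id2 by -0.81 and Id3 by -1.55. Ctgf, Fhl2, Tyro3 and Hk2 each lost the call in some leave-outs. Tyro3 also lost it with limma-voom (adjusted p = 0.0579), and Hk2 with the gene length trend removed (edgeR adjusted p = 0.135). Without the 3 libraries that stood apart, Rock2, Dusp5, Cxcl1, Kif23, Bcl2l11, Fhl2, Tyro3 and Hk2 lost it (edgeR adjusted p of 0.051 to 0.233).

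In 13 of 204 groups of 4 libraries, over the genes named, 1 library lay far from the other 3 by Dixon's ratio, and chance gives about 1 in 20 such groups (5%). CD1 was the library in question for Amotl2 (124 CPM), Cdc42ep3 (37.6 CPM), Cxcl3 (27.1 CPM) and Igfbp2 (0.0799 CPM), CD4 for Dusp5 (66.1 CPM), Anxa1 (1038 CPM) and Myo7b (0.374 CPM), and CD3 for Lef1 (0.0707 CPM). ACD1 was it for Fosl2 (44.8 CPM), Bcl2l2 (45.8 CPM) and Zap70 (5.104 CPM), ACD2 for Ptgs2 (22.8 CPM), and ACD4 for Pfkfb3 (162 CPM). None of these genes lost its call when that library was left out. For Igfbp2, Lef1 and Myo7b the other CD libraries were at 0 CPM, so any count would be flagged, and the 5% does not describe them.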

How the results depend on the processing

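Over all 13106 genes the comparison gave 1129 calls. The count was 662 without CT4, CD1 and ACD4, 532 at an adjusted p under 0.01, 203 with a change of at least 1.5-fold, and 756 (without ACD3) to 1639 (without CD4) with 1 library left out. DESeq2 made 1307 calls, which held 1124 of the 1129, and limma-voom 1045, which held 1023. Among expressed genes the 559 rises became 369 to 840 with 1 library left out and 316 without the 3 libraries, and the 497 falls 307 to 725 and 277. For the difference between effects the 598 calls became 975 with DESeq2, 928 with no filter on low counts, 132 at an adjusted p under 0.01, 120 without the 3 libraries, and 251 to 1645 with 1 library left out. Without the drug the 1789 calls became 785 at an adjusted p under 0.01 and 1103 to 2087 with 1 library left out. The cause of these shifts was not tested, apart from the stricter thresholds. The share of counts in T lymphocyte markers, a difference of 8.65 ppm, was 7.71 ppm without CD1 and 8.50 ppm without CD4, both at an exact p of 0.0571, and 7.55 to 9.92 ppm over all leave-outs. The Id genes, not called under the drug, changed sign without being called: under leave-outs Id1 ran from -0.034 to 0.22, Id2 from -0.075 to 0.035 and Id3 from -0.21 to 0.082. Id1 was -0.034 without CD3, -0.012 without CD4 and -0.020 without ACD1, Id2 0.035 without CD2 and 0.016 without ACD3, and Id3 0.048 without CD1, 0.082 without ACD4 and 0.19 without the 3 libraries. The difference between effects for Arhgef17, not called, was 0.00058 without the 3 libraries. Of 3755 values of named genes under alternatives, 3662 kept their direction and their side of the threshold. The replicate numbers of the labels were tried as a block. Same-numbered CD and ACD libraries correlated in their deviations from the group means by 0.206, 0.0062, 0.024 and 0.227, and CD2 and CD3 did not correlate best with their own number, so the numbers are not taken as pairs. The replicate block gave 1117 calls, 1040 of them shared, and 753 for the difference. Depth limits genes near 1 CPM, where 3 counts are 0.156 to 0.368 CPM.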

Other observations

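A few further genes of the largest changes belong to no list above. Snx18 stood at 67.6, 76.2, 69.99 and 74.2 CPM in the CD libraries and at 101, 99.004, 107 and 116 CPM in the ACD libraries. Snx18 encodes a sorting nexin that bends membranes in endocytosis and autophagy, and its groups did not overlap (log2 0.56, SE 0.054, edgeR adjusted p = 2.98e-07); without the drug corpses went with a fall (log2 -0.25, edgeR adjusted p = 0.00444). Rapgef4 stood at 24.9, 28.5, 22.6 and 29.9 CPM in the CD libraries and at 12.9, 13.004, 12.4 and 14.7 CPM in the ACD libraries. Rapgef4 encodes EPAC2, a cAMP-activated exchange factor of Rap, and it was lower with corpses in both settings (log2 -1.01, edgeR adjusted p = 1.63e-06, and -0.69, edgeR adjusted p = 0.000178 without the drug). Gli1 and Notch1 were low and fell with corpses under the drug. Gli1, a target and factor of Hedgehog signalling, averaged 7.87 ± 2.05 CPM in CD and 4.14 ± 0.599 in ACD (log2 -0.94, edgeR adjusted p = 0.000992), and Notch1, a receptor, 6.12 ± 1.85 and 3.196 ± 0.29 (log2 -0.93, edgeR adjusted p = 0.006).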
